A study of Mus musculus with 233 samples.

Results

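The potassium channel genes of the mouse genome carry symbols that start with Kcn. The genes described here are the protein-coding genes with such a symbol whose mean level over all libraries was at least 0.5 CPM (counts scaled to a common library total). Of 94 protein-coding Kcn genes in the annotation, 73 met this rule, out of 13532 protein-coding genes at or above the same level and 41129 gene entries in the count table. All 73 members passed the filter on low counts and were tested in every comparison. Just inside the minimum lay Kcnk5 at 0.569 CPM and Kcnh8 at 0.617 CPM, and just outside it lay Kcnk4 at 0.469 CPM and Kcnj6 at 0.447 CPM.

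The study measured polyadenylated RNA by sequencing in the striatum of zQ175DN mice and of wild-type (WT) littermates. zQ175 mice are heterozygous for a knock-in in which exon 1 of mouse Htt was exchanged for human HTT exon 1 with an expanded CAG tract, a model of Huntington's disease. Each hemisphere was injected with an adeno-associated virus (AAV2/2+1) and sampled separately, so every mouse, control or not, carried a virus in both hemispheres. The nZFP virus encodes an HA-tagged zinc finger repressor directed at expanded CAG repeats, driven by the human synapsin promoter, which is active in neurons and not in glia. The DBD virus encodes, from the same promoter, the repressor protein without its DNA-binding domain, and the Estop virus encodes no protein. The design had 5 cohorts, each named by the age in months at which its mice were injected and then killed: 2M_6M and 2M_8M for early injection, and 6M_8M, 6M_10M or 6M_12M for late injection. They had 4, 6, 2, 4 and 6 months of treatment. With 2 genotypes and 3 viruses this gave 30 groups of 6 to 8 libraries, 233 libraries in all, from 120 mice. Of these mice, 113 gave 2 libraries, in each case with different viruses, so no group holds 2 libraries of 1 mouse. Below, lists of 5 values follow the cohorts in that order.

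Potassium channels let potassium ions leave or enter a cell along their gradient, and so set the resting potential, the threshold and the pattern of firing. Voltage-gated channels are built from 4 pore subunits, often with silent modifier subunits and cytosolic or membrane-bound auxiliary subunits, while inward rectifiers and two-pore-domain leak channels act near rest. In the striatum the medium spiny neurons, which make up most of its neurons, are held at a strongly negative potential by inwardly rectifying and leak potassium currents, and A-type channels delay their firing.

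Between 27993215 and 61296071 counts were assigned to genes in each library. Medium spiny neuron markers were abundant in all groups. Their summed level had a median of 11160 CPM (range 10350 to 11690) in WT DBD libraries of 2M_8M and 6135 CPM (5432 to 6577) in zQ175 DBD libraries, and 9, 8, 9, 9 and 8 of the 10 markers were lower in zQ175. Lower expression per cell and fewer such cells cannot be told apart in bulk tissue, and the part of either in the results below was not tested. Of the 233 libraries, 4 contradicted their virus label by the vector sequences they held. They were WT DBD replicate 6 in 2M_6M, WT DBD replicates 7 and 8 in 6M_8M and zQ175 nZFP replicate 5 in 6M_8M. A further 4 stood apart by low levels of long genes relative to short genes, namely zQ175 DBD replicate 3 in 2M_6M, WT nZFP replicate 8 in 6M_8M, and WT DBD replicate 2 and zQ175 nZFP replicate 2 in 6M_10M. The cohorts 2M_8M and 6M_12M, both treated for 6 months, held none of these 8 libraries, and levels by library are given from them. For Kcnn3 alone, levels are also given from other cohorts. The cohorts treated for 6 months are not free of this variation. Their level of long relative to short genes ranged from -0.70 to 0.70 and from -0.93 to 0.50, and a library was judged only against the spread of its own cohort. Medians in WT DBD, zQ175 DBD and zQ175 nZFP were 0.23, 0.42 and -0.18 in 2M_8M. In 6M_12M they were -0.21, 0.28 and 0.30. The part of these differences in the levels by library was not tested.

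In WT striatum levels between genes were compared per length, in TPM (transcripts scaled by gene length to a fixed total per library), over 116 WT libraries. Kcnab1, a cytosolic subunit of Kcna channels, had the highest median at 341 TPM (205 to 471). It was followed by the strong inward rectifier Kcnj4 at 231 TPM (131 to 292), the Kcnd partner Kcnip2 at 231 TPM (108 to 319) and Kcnab2 at 198 TPM (103 to 279). The leak channels Kcnk2 (134 TPM) and Kcnk1 (122 TPM), the A-type pore subunit Kcnd2 (115 TPM) and Kcnh3 (114 TPM) were lower. In this order, each gene's range over libraries overlapped that of the next gene named. Of the Kcna pore subunits, Kcna4 had the highest median, at 53.2 TPM.

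Under the DBD virus, members were more often lower than higher in zQ175 than in WT in each cohort. The numbers called lower were 24, 14, 12, 16 and 16 of 73 (32.9%, 19.2%, 16.4%, 21.9% and 21.9%), against 11.5%, 9.37%, 5.15%, 12.3% and 9.14% of all genes tested. Here and below, all genes tested (15523 to 16000 by cohort) include genes that are not protein-coding and genes under the CPM minimum. Members and all genes are thus not matched for type or level. The numbers called higher were 7, 4, 1, 5 and 4 of 73, against 17.2%, 9.32%, 3.98%, 11.9% and 9.14% of all genes. Calls are made at an adjusted p under 0.05 in edgeR's quasi-likelihood test with Benjamini-Hochberg adjustment over all genes, and differences of single genes are log2 fold changes. Median log2 fold changes of the members were -0.17, -0.11, -0.08, -0.04 and -0.11, and those of all genes lay between -0.01 and 0.04. The same 10 members were lower in all 5 cohorts: Kcnip2, Kcnip3, Kcnab1, Kcne1l, Kcnj4, Kcnk1, Kcnk2, Kcnk13, Kcnh3 and Kcnq5. Kcng1 was the 1 member higher in all 5. Without the libraries that contradicted their labels, 21 members were lower in 2M_6M and 16 in 6M_8M, where 5 were higher. Without the libraries that stood apart, 19, 14 and 20 were lower in 2M_6M, 6M_8M and 6M_10M. With Estop in place of DBD the genotype comparison called 14, 14, 13, 19 and 21 members lower and 3, 4, 3, 6 and 6 higher, where 19.4%, 16.9%, 14.7%, 23.2% and 17.4% of all genes were called in either direction. With the level of long relative to short genes as a covariate, 25 members were lower in 2M_8M and 24 in 6M_12M. Shares of all genes are not given here for this fit or for those without libraries. No excess of members is read from these counts.

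**Figure D1:**
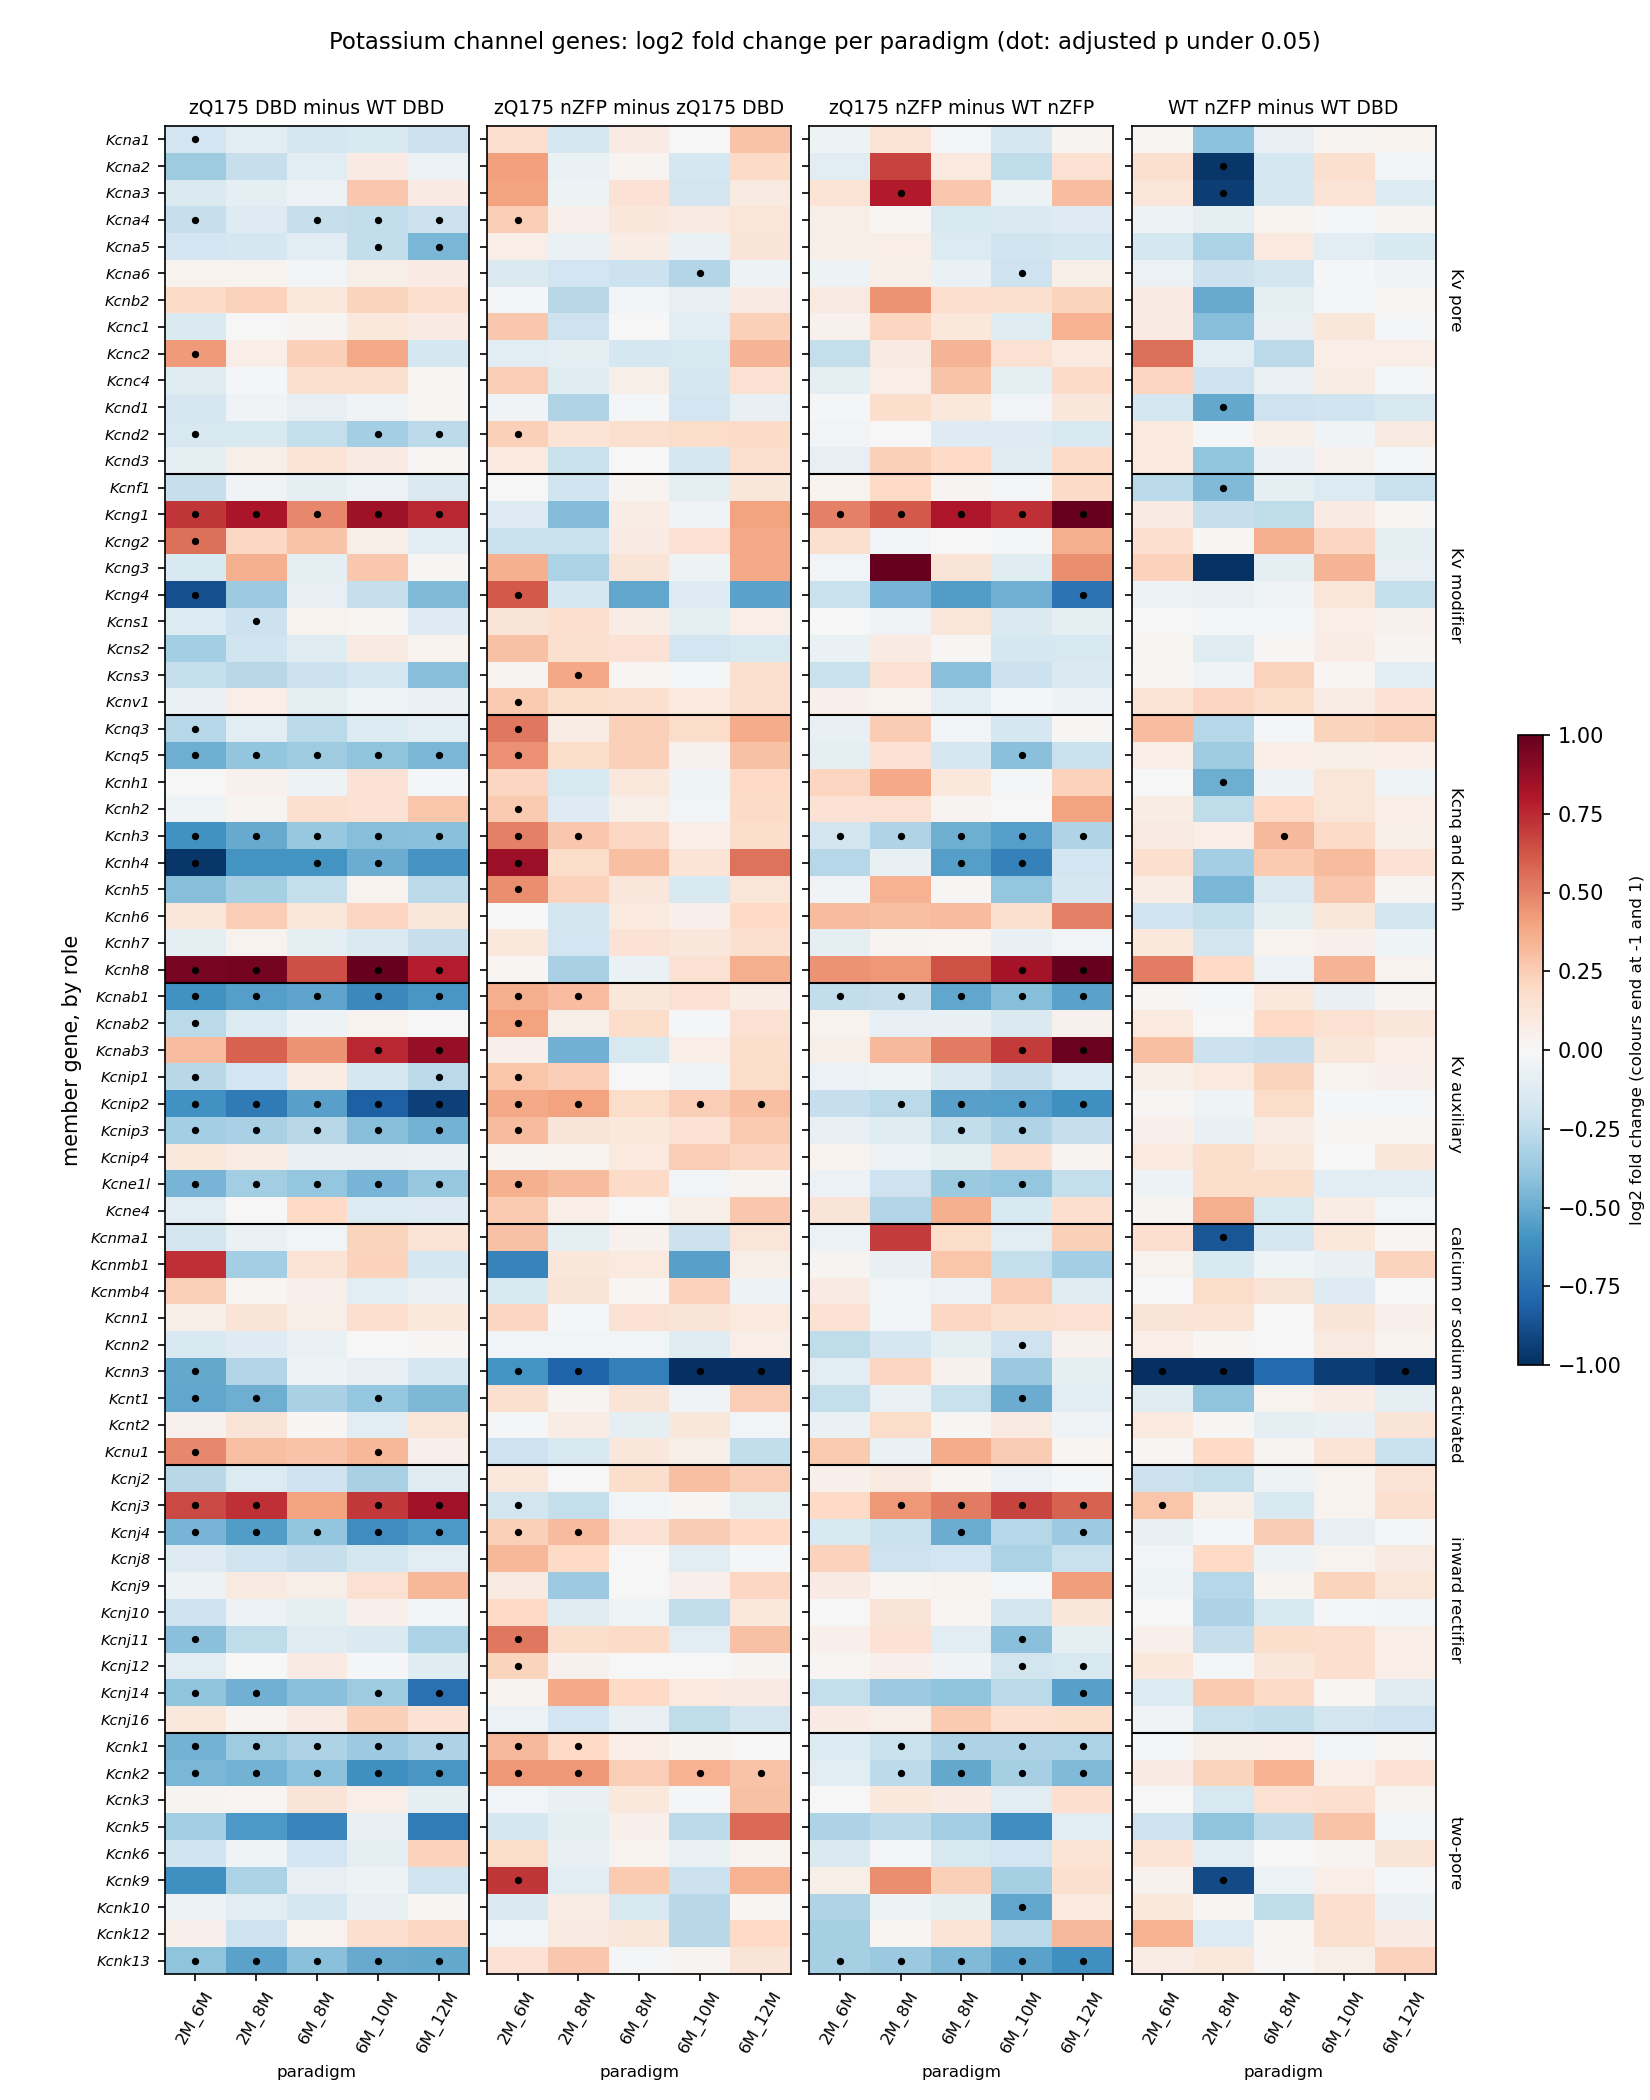
Log2 fold change of each of 69 members (rows, grouped by role) in each cohort (columns) for the genotype difference under DBD, the repressor effect in zQ175, the genotype difference under nZFP and the repressor effect in WT, with a dot where the adjusted p was under 0.05. The left panel holds unbroken rows of dots for 10 members that were lower and for Kcng1, which was higher, and Kcnn3 is the 1 member that is low in both repressor panels.

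**Figure D2:**
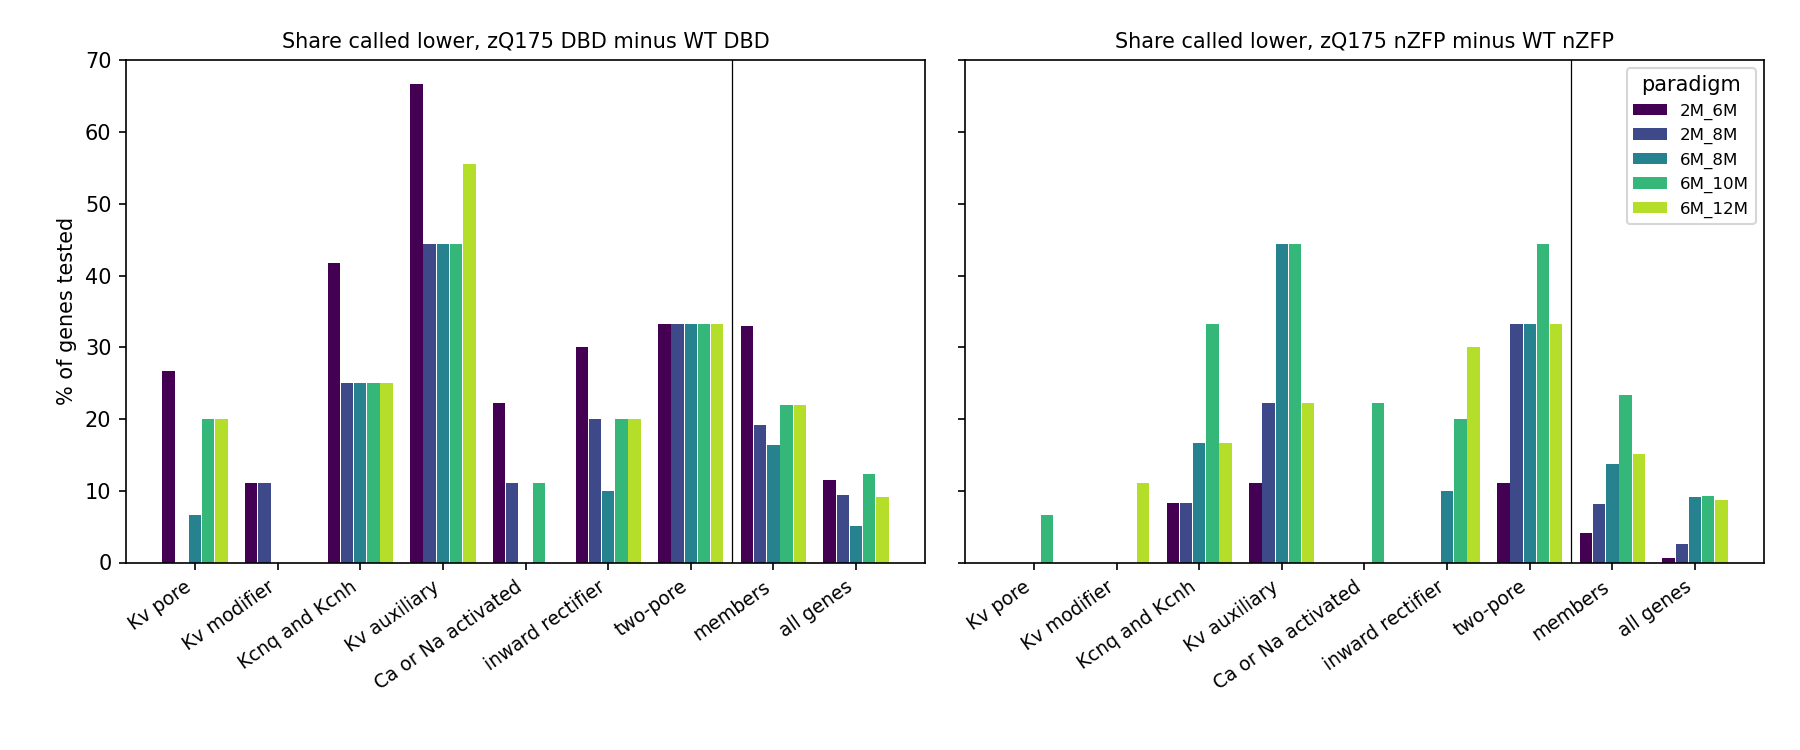
Share of genes tested (%) that were called lower in zQ175 than in WT, by role of the member, under DBD (left) and under nZFP (right), with 1 bar for each cohort and the share of all genes at the right edge. Under DBD the auxiliary subunits reached 66.7% in 2M_6M, and the two-pore channels stood at 33.3% in each cohort.

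The auxiliary subunits of voltage-gated channels, which bind pore subunits and set their surface number and inactivation, were the role most often called lower. Of the 9 (Kcnab1, Kcnab2, Kcnab3, Kcnip1, Kcnip2, Kcnip3, Kcnip4, Kcne1l and Kcne4), 6, 4, 4, 4 and 5 were lower under DBD. Kcnip2 (chr19:45791839-45816061, minus strand, GRCm38) encodes a cytosolic calcium-binding protein that carries A-type Kcnd channels to the membrane. In 6M_12M its level was 181 to 273 CPM in WT DBD (median 232, n = 7), 109 to 131 in zQ175 DBD (median 115, n = 8) and 134 to 160 in zQ175 nZFP (median 144, n = 8). The 3 groups did not overlap, with nZFP libraries between the others. In 2M_8M the order was the same, at 200 to 275 (median 239), 123 to 162 (median 150) and 167 to 207 CPM (median 198), but the repressor group reached into the WT range. The genotype difference of Kcnip2 was -0.60, -0.71, -0.54, -0.82 and -0.93 on the log2 scale, with SEs of 0.05 to 0.09 and adjusted p-values from 1.07e-17 to 3.88e-05. nZFP raised it in zQ175 in every cohort but 6M_8M, by 0.38, 0.40, 0.25 and 0.30, and the value in 6M_8M was 0.19 ± 0.09 (SE). Against Estop, the increases in 6M_10M and 6M_12M were 0.08 and 0.17 and were not called. It was still lower in zQ175 under nZFP in the 4 cohorts other than 2M_6M, at -0.27 in 2M_8M and at -0.54, -0.55 and -0.61 in the 6M cohorts.

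Kcnab1 (chr3:65109384-65378223, plus strand), the cytosolic subunit that speeds inactivation of Kcna channels, was lower in zQ175 in every cohort. In 6M_12M it lay at 426 to 521 CPM in WT DBD (median 469), 292 to 337 in zQ175 DBD (median 309) and 303 to 348 in zQ175 nZFP (median 332). The 2 zQ175 groups overlapped widely and stayed below every WT DBD library. In 2M_8M, by contrast, the repressor group (384 to 476, median 429) lay wholly above zQ175 DBD (321 to 357, median 344) and overlapped WT DBD (436 to 547, median 501). The genotype differences were -0.61, -0.55, -0.53, -0.64 and -0.58 (SEs 0.05 to 0.09, adjusted p at most 8.52e-05). nZFP raised Kcnab1 by 0.37 and 0.31 in 2M_6M and 2M_8M, and the values in the 6M cohorts, 0.11, 0.15 and 0.08, were not called. Kcnab1 stayed lower in zQ175 under nZFP in all 5, at -0.25 and -0.23 after injection at 2 months and at -0.52, -0.42 and -0.54 after injection at 6 months.

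Kcnip3 (chr2:127456498-127522094, minus strand) belongs to the same calcium-sensor family and also acts as a DNA-binding repressor. It was lower in zQ175, at -0.34, -0.32, -0.28, -0.43 and -0.48 (SEs 0.05 to 0.12), although its WT DBD (48.1 to 89.2 CPM) and zQ175 DBD (36.5 to 57.4 CPM) libraries overlapped in 6M_12M. nZFP raised Kcnip3 in 2M_6M by 0.32 (adjusted p = 0.00546, edgeR), and by 0.17, not called, against Estop. Kcne1l (chrX:142304752-142306294, minus strand), a membrane-spanning auxiliary subunit encoded on the X chromosome, was lower, at -0.46, -0.35, -0.39, -0.46 and -0.38 (SEs 0.11 to 0.12). Its level was low, at 5.24 to 10.1 CPM in WT DBD and 4.71 to 6.97 CPM in zQ175 DBD libraries of 6M_12M, with overlap. Kcnab2 was lower in 2M_6M alone (-0.27), where in zQ175 it was also lower under DBD than under Estop. Kcnip1 was lower in 2M_6M and 6M_12M (-0.28 and -0.27), and Kcnip4 and Kcne4 were not called in the genotype comparison. Kcnab3 went the other way, higher by 0.75 and 0.87 in 6M_10M and 6M_12M, and higher again under nZFP there (0.70 and 0.98).

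The 10 inward rectifiers counted 3, 2, 1, 2 and 2 members lower in zQ175 under DBD and 1, 1, 0, 1 and 1 higher. Kcnj4 (chr15:79483714-79505241, minus strand) encodes a strong rectifier that sets the resting potential of striatal projection neurons. In 6M_12M it lay at 197 to 282 CPM in WT DBD (median 221), 142 to 162 in zQ175 DBD (median 151) and 164 to 184 in zQ175 nZFP (median 175). The 3 groups did not overlap, and the repressor group sat nearer to zQ175 DBD. Its genotype differences were -0.47, -0.56, -0.40, -0.62 and -0.57 (SEs 0.06 to 0.10, adjusted p at most 0.00144). nZFP raised it by 0.24 and 0.32 in 2M_6M and 2M_8M. The value in 6M_12M was 0.20 with an adjusted p of 0.0602 by edgeR, and it was called there by DESeq2 and by a fit with the mouse as a block. Kcnj14 (chr7:45816460-45824782, minus strand), of the same strong-rectifier class, was lower in every cohort but 6M_8M, at -0.40, -0.48, -0.35 and -0.75. With Estop as the control virus the differences in the 2M cohorts were -0.30 and -0.29 and were not called. In 6M_12M its libraries lay at 3.55 to 6.11 CPM in WT DBD and 2.28 to 3.86 in zQ175 DBD, with some overlap, and under nZFP it was called lower there alone (-0.55). The other members of that class, Kcnj2 and Kcnj12, were not called under DBD. Kcnj11, a pore subunit of ATP-sensitive channels, was lower in 2M_6M (-0.42) and raised by nZFP there (0.52). Kcnj8, the vascular counterpart of Kcnj11, the G protein-gated subunit Kcnj9 and the glial channels Kcnj10 and Kcnj16 were called in none of the genotype comparisons under DBD.

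Kcnj3 (chr2:55435970-55598145, plus strand), a pore subunit of G protein-gated channels that open after activation of inhibitory receptors, was higher in zQ175. Its level was 8.54 to 13.6 CPM in WT DBD (median 9.56), 16.4 to 22.1 in zQ175 DBD (median 19.0) and 16.3 to 19.2 in zQ175 nZFP (median 17.6) in 6M_12M. Every zQ175 library under DBD or nZFP lay above every WT DBD library. Cortical neuron markers were also higher in zQ175 under DBD, 2, 2, 2, 3 and 2 of the 4, 3, 5, 4 and 3 tested. Their summed level in 6M_12M was 2.61 to 4.26 CPM in WT DBD, 20.2 to 42.1 in zQ175 DBD and 8.93 to 19.3 in zQ175 nZFP, and their part in the higher Kcnj3 and Kcng1 levels was not tested. The genotype differences were 0.66, 0.73, 0.40, 0.71 and 0.84, called in the 4 cohorts other than 6M_8M. In 6M_8M, without the 3 libraries that contradicted their labels, the value was 0.55 and was called. Under nZFP it stayed higher by 0.43, 0.52, 0.68 and 0.59 in the last 4 cohorts, and by 0.20 (adjusted p = 0.0993, edgeR) in 2M_6M. In 2M_6M the repressor lowered Kcnj3 in zQ175 (-0.18), a call that ended without the library that stood apart, and raised it in WT by 0.28. Exons of a noncoding gene on the opposite strand, Gm26794, cover 31.1% of its exonic length, and since the strand setting of the counting is not given in the sources used here, reads of the pair may not have been told apart.

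The 9 two-pore-domain leak channels had 3 members lower in zQ175 in every cohort and none higher, and the 3 were the same genes throughout, Kcnk1, Kcnk2 and Kcnk13. Kcnk2 (chr1:189207930-189402273, minus strand), a leak channel opened by lipids, stretch and heat, lay at 175 to 202 CPM in WT DBD (median 197), 107 to 140 in zQ175 DBD (median 134) and 142 to 163 in zQ175 nZFP (median 154) in 6M_12M. Again the 3 groups did not overlap. In 2M_8M the levels were 176 to 219 (median 196), 118 to 160 (median 143) and 170 to 238 CPM (median 187), so the repressor group there covered the WT range and shared no value with zQ175 DBD. The genotype differences of Kcnk2 were -0.46, -0.47, -0.41, -0.61 and -0.58 (SEs 0.06 to 0.11, adjusted p at most 0.00843). nZFP raised it by 0.43, 0.43, 0.34 and 0.28 in the 4 cohorts other than 6M_8M. Against Estop the increases in 6M_10M and 6M_12M, 0.22 and 0.21, were not called. Under nZFP it was lower in zQ175 in the last 4 cohorts, at -0.26, -0.52, -0.33 and -0.44.

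Kcnk1 (chr8:125995170-126030685, plus strand), a weakly rectifying leak channel, was lower, at -0.47, -0.36, -0.31, -0.36 and -0.31 (SEs 0.05 to 0.10, adjusted p at most 0.00205). In 6M_12M its zQ175 DBD (93.2 to 114 CPM) and zQ175 nZFP (93.7 to 109 CPM) libraries covered the same range, both below WT DBD (115 to 141 CPM). nZFP raised Kcnk1 in 2M_6M (0.32) and 2M_8M (0.20). Neither call held against Estop, where the values were 0.21 and 0.10, and the first ended without the library that stood apart (0.21). Kcnk13 (chr12:99964499-100062682, plus strand), a leak channel that in the brain is mainly found in microglia, was lower, at -0.40, -0.53, -0.42, -0.50 and -0.51 (SEs 0.07 to 0.11, adjusted p at most 0.0104), and at -0.30, not called, in 6M_8M with Estop. In 6M_12M it lay at 12.9 to 18.7 CPM in WT DBD and 9.37 to 13.2 in zQ175 DBD, with overlap at the edge. The repressor effect on Kcnk13 in zQ175 was not called in any cohort (0.14, 0.27, -0.01, 0.02 and 0.12), and the gene stayed lower under nZFP in all 5, at -0.33, -0.37, -0.44, -0.54 and -0.61. Of 5 microglia markers, 2, 1, 0, 1 and 1 were lower in the genotype comparison. Their summed level was 252 to 302 CPM in WT DBD and 257 to 311 in zQ175 DBD of 6M_12M, ranges that overlapped almost fully, and the part of microglia in the Kcnk13 difference was not tested. The acid-sensitive channels Kcnk3 and Kcnk9, and Kcnk5, Kcnk6, Kcnk10 and Kcnk12, were not called under DBD. Kcnk9 was raised by nZFP in 2M_6M (0.72).

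**Figure D3:**
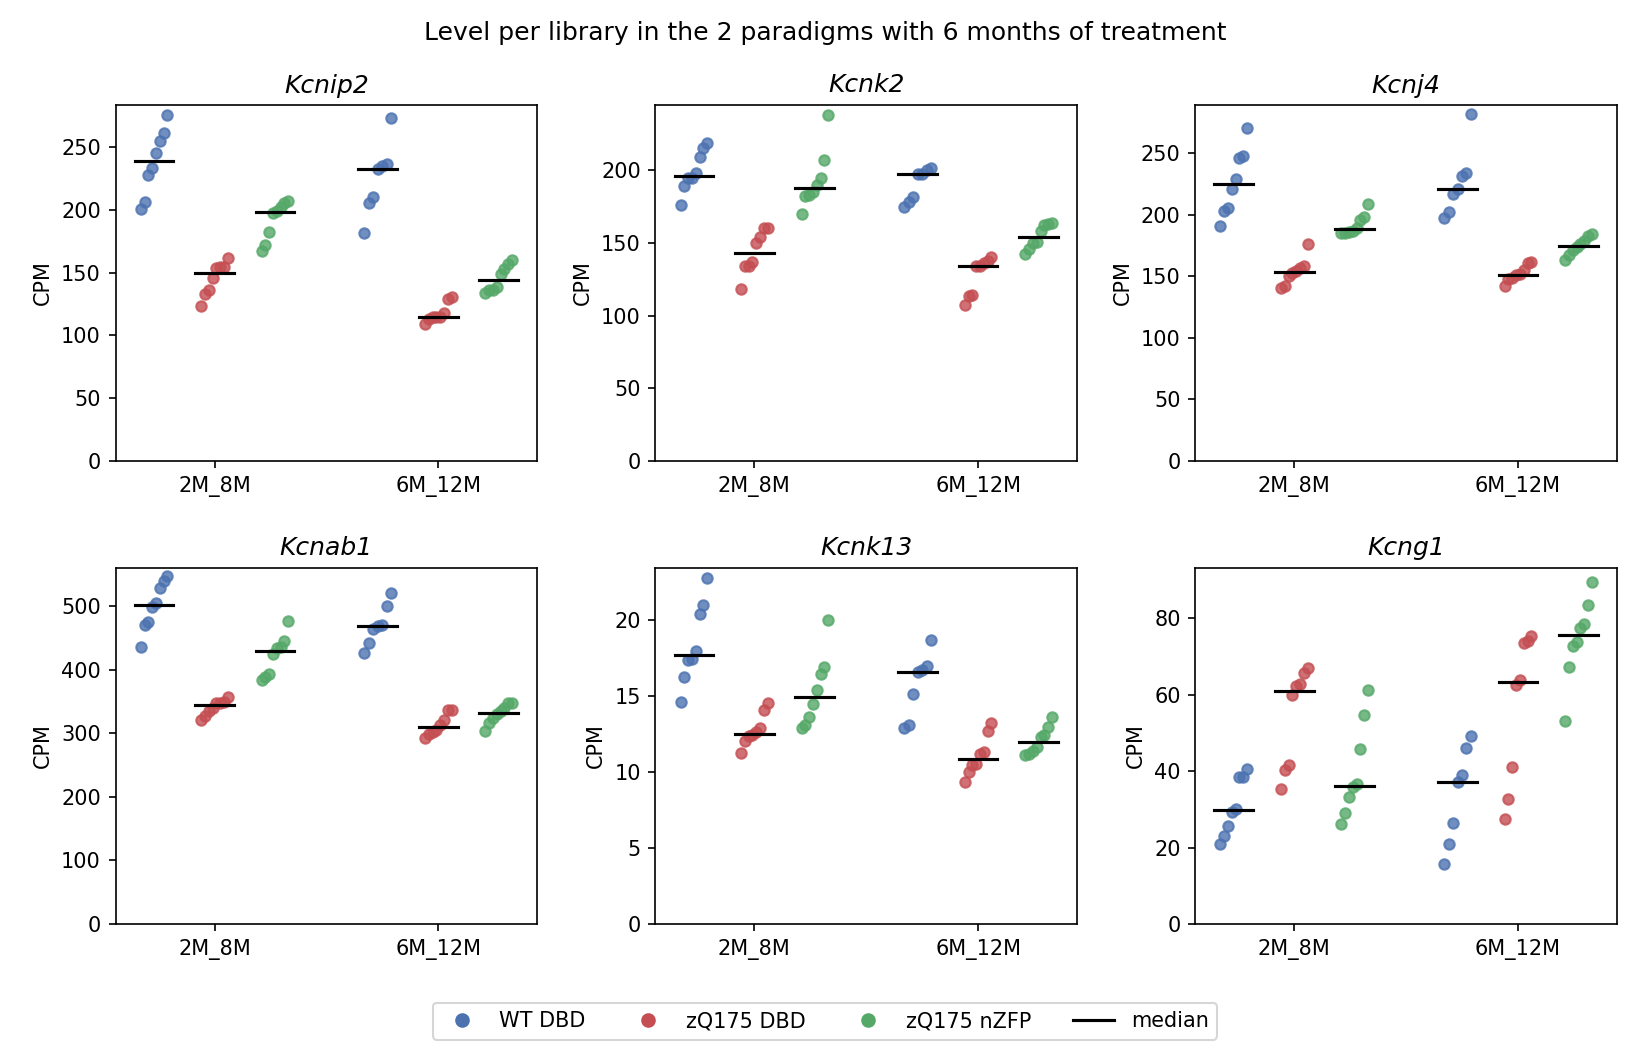
CPM per library (points, sorted within a group, with the median as a black line) of 6 members in WT DBD, zQ175 DBD and zQ175 nZFP libraries of the 2 cohorts treated for 6 months. The repressor group lies between the others or at the WT level for Kcnip2, Kcnk2 and Kcnj4, while Kcnab1 in 6M_12M stays at the zQ175 level (medians of 332 and 309 CPM).

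Among the 12 Kcnq and Kcnh genes, 5, 3, 3, 3 and 3 were lower and 2, 2, 0, 1 and 1 higher under DBD. Kcnq3 and Kcnq5 are subunits of the M-channel, a slow non-inactivating channel closed by muscarinic receptors. Kcnq5 (chr1:21398403-21961942, minus strand) was lower in all 5 cohorts, at -0.49, -0.40, -0.35, -0.40 and -0.46 (SEs 0.09 to 0.14, adjusted p at most 0.0446). Its libraries overlapped, at 88.8 to 164 CPM in WT DBD and 58.7 to 104 in zQ175 DBD of 6M_12M. nZFP raised Kcnq5 in 2M_6M by 0.46, and by 0.21, not called, against Estop. Kcnq3 was lower in 2M_6M (-0.29), and nZFP raised it there by 0.53. In zQ175 of that cohort Kcnq3 was also lower under DBD than under Estop.

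Kcnh3 and Kcnh4 encode forebrain channels of the eag-like subfamily, which also holds Kcnh8. Kcnh3 (chr15:99224861-99242817, plus strand) was lower, at -0.60, -0.50, -0.38, -0.43 and -0.42 (SEs 0.05 to 0.07, adjusted p at most 0.000571). In 6M_12M its level was 172 to 242 CPM in WT DBD (median 187), 115 to 154 in zQ175 DBD (median 148) and 140 to 177 in zQ175 nZFP (median 161). WT DBD and zQ175 DBD did not overlap, and the repressor group touched both. nZFP raised Kcnh3 by 0.51 in 2M_6M, where in zQ175 it was also lower under DBD than under Estop, and by 0.27 in 2M_8M. It stayed lower under nZFP in all 5 cohorts, at -0.18, -0.30, -0.49, -0.55 and -0.30. Kcnh4 was lower in 2M_6M, 6M_8M and 6M_10M (-0.97, -0.60 and -0.49) and was raised in 2M_6M by 0.85. Kcnh8 (chr17:52602709-52979194, plus strand) was higher by 0.95, 0.96, 1.02 and 0.79 in the 4 cohorts other than 6M_8M, where the value was 0.64, or 1.18 and called without the libraries that contradicted their labels. In 6M_12M its level was 0.352 to 0.709 CPM in zQ175 DBD. In WT DBD it was 0.213 to 0.502 CPM, a range that barely reached the minimum of 0.5 CPM. That minimum applies to the mean over both genotypes, so a gene at this level can meet it through libraries where it is high. The higher level of Kcnh8 in zQ175 is therefore not independent of the rule that made it a member. The eag genes Kcnh1 and Kcnh5 and the erg genes Kcnh2, Kcnh6 and Kcnh7 were not called under DBD. nZFP raised Kcnh2 (0.26) and Kcnh5 (0.47) in 2M_6M. In zQ175 of that cohort Kcnh2 was lower under DBD than under Estop, by more than this increase.

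The 15 pore subunits of delayed-rectifier and A-type channels had 4, 0, 1, 3 and 3 members lower, and 1 higher, in 2M_6M. Kcna4 (chr2:107290639-107298502, plus strand), an A-type subunit of axons, was lower in the 4 cohorts other than 2M_8M, at -0.23, -0.23, -0.25 and -0.22 (SEs 0.05 to 0.08). Its WT DBD (91.7 to 122 CPM) and zQ175 DBD (81.5 to 112 CPM) libraries overlapped widely in 6M_12M, and nZFP raised it in 2M_6M by 0.24. In 6M_12M the group median in TPM, unlike that in CPM, was higher in zQ175 DBD than in WT DBD. With Estop as the control virus the genotype difference in 2M_6M was -0.10 and was not called. Kcnd2, the main A-type pore subunit of medium spiny neurons and partner of Kcnip2, was lower in 2M_6M, 6M_10M and 6M_12M (-0.16, -0.34 and -0.26). Kcna5 was lower in 6M_10M and 6M_12M (-0.24 and -0.46), Kcna1 in 2M_6M (-0.19), and Kcnc2, a subunit of fast-spiking interneurons, was higher in 2M_6M (0.43). Kcna2, Kcna3, Kcna6, Kcnb2, Kcnc1, Kcnc4, Kcnd1 and Kcnd3 were not called. nZFP lowered Kcna6 in zQ175 in 6M_10M (-0.29). Exons of an opposite-strand gene cover 39.6% of the exonic length of Kcna6.

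The 9 modifier subunits (Kcnf1, Kcng1, Kcng2, Kcng3, Kcng4, Kcns1, Kcns2, Kcns3 and Kcnv1) form no channel alone and join Kcnb subunits. Kcng1 (chr2:168260117-168281736, minus strand) was higher in zQ175 by 0.71, 0.82, 0.48, 0.85 and 0.75, with wide SEs of 0.11 to 0.26 and adjusted p-values up to 0.0416. Its level in 6M_12M was 15.7 to 49.3 CPM in WT DBD (median 37.2), 27.4 to 75.4 in zQ175 DBD (median 63.2) and 53.1 to 89.5 in zQ175 nZFP (median 75.7). The WT DBD and zQ175 DBD libraries overlapped, while the repressor libraries all lay above WT DBD. In 2M_8M the repressor libraries, at 26.1 to 61.3 CPM (median 36.2), spread over both the WT DBD range (21.0 to 40.5, median 29.7) and the zQ175 DBD range (35.2 to 67.1, median 61.1). Under nZFP Kcng1 stayed higher in all 5 cohorts, by 0.50, 0.62, 0.81, 0.73 and 1.14. Kcng2 was higher (0.55) and Kcng4 lower (-0.88) in 2M_6M, where nZFP raised Kcng4 by 0.61. Kcns1 was lower in 2M_8M (-0.21), and nZFP raised Kcns3 there by 0.39. Kcnf1, Kcng3, Kcns2, Kcns3 and Kcnv1 were not called between genotypes under DBD, and nZFP raised Kcnv1 in 2M_6M by 0.26.

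The group of calcium- or sodium-activated channels, their subunits and relatives had 9 members. They were Kcnma1, Kcnmb1, Kcnmb4, Kcnn1, Kcnn2, Kcnn3, Kcnt1, Kcnt2 and Kcnu1, the last placed here as a relative only. The sodium-activated Kcnt1 was lower in 2M_6M, 2M_8M and 6M_10M (-0.52, -0.49 and -0.38), and Kcnu1, best known from sperm, was higher in 2M_6M and 6M_10M (0.48 and 0.33). Neither the large-conductance pore Kcnma1 and its partners Kcnmb1 and Kcnmb4, nor Kcnn1, Kcnn2 and Kcnt2, were called in the genotype comparison under DBD. Kcnn3 was lower in 2M_6M alone (-0.51, adjusted p = 0.0225, edgeR), and with Estop as the control virus the value was -0.25 and was not called.

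**Figure D4:**
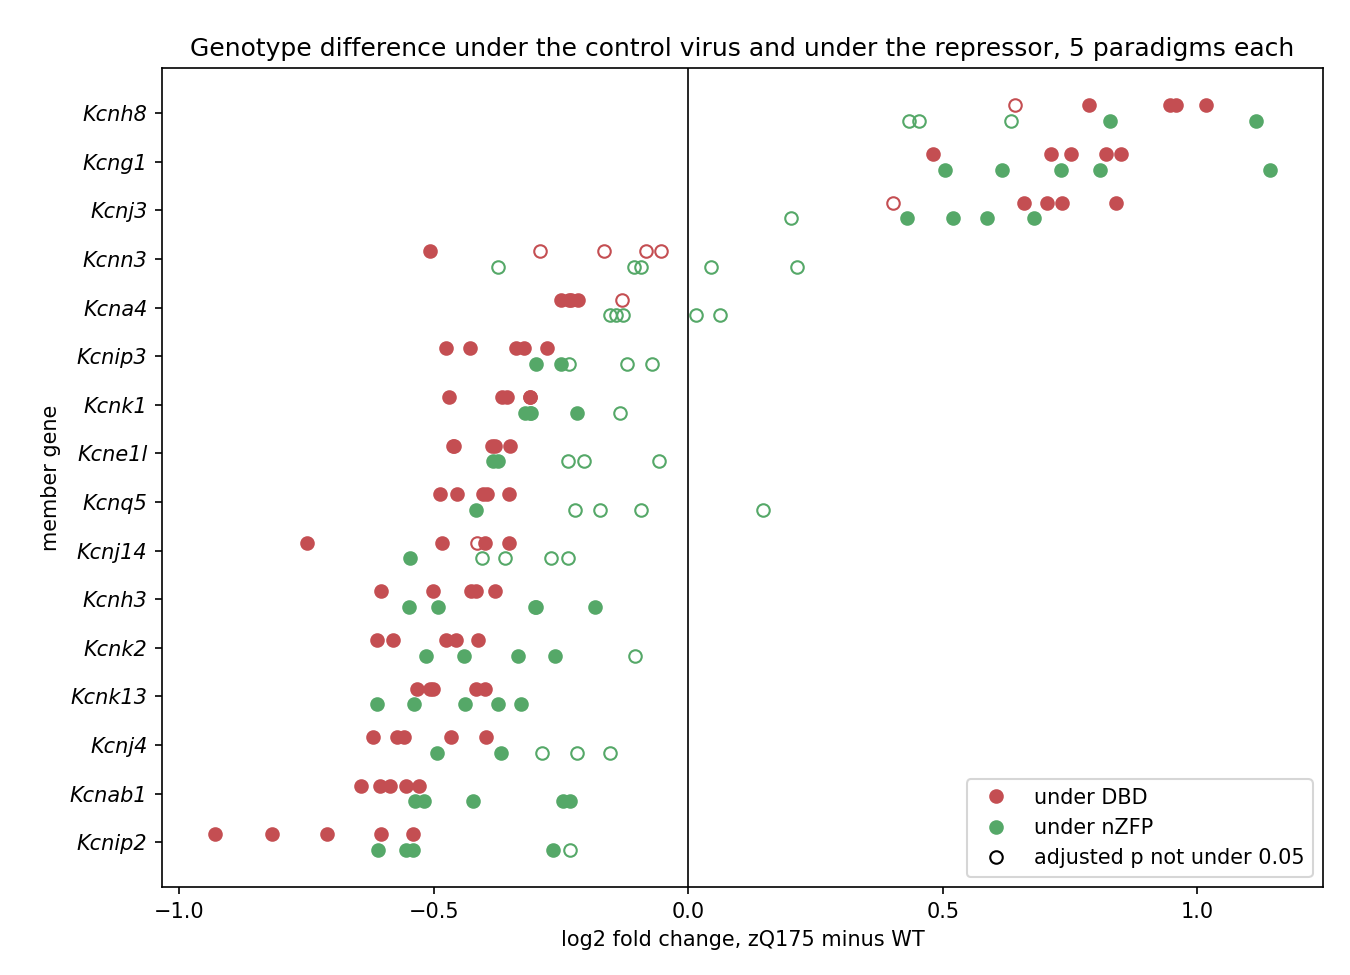
Log2 fold change between zQ175 and WT under DBD (upper row of points for each gene) and under nZFP (lower row) for the 16 members with full values, 1 point for each cohort, filled where the adjusted p was under 0.05. Kcnip2, Kcnab1, Kcnh3 and Kcnk13 stay below 0 under both viruses and Kcng1, Kcnj3 and Kcnh8 above 0, whereas Kcna4 has no filled point under nZFP.

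In zQ175, nZFP against DBD raised 24, 7, 0, 2 and 2 members and lowered 2, 1, 0, 2 and 1. Among all genes, 8.8%, 4.16%, 0.0437%, 0.562% and 0.676% were raised and 14.4%, 2.9%, 0.0688%, 0.41% and 0.573% were lowered. The genotype and repressor comparisons share the zQ175 DBD libraries. By role, the raised members in 2M_6M were 7 of 12 Kcnq and Kcnh genes, 6 of 9 auxiliary subunits and 3 of 10 inward rectifiers. The others were 3 of 9 two-pore channels, 3 of 15 pore subunits and 2 of 9 modifiers, with 0 of 9 in the calcium- or sodium-activated group. Kcnip2 and Kcnk2 were the 2 members raised in 4 cohorts, and in 6M_10M and 6M_12M they were the only members raised. Medium spiny neuron markers moved beside them, with 9, 8, 0, 6 and 4 of 10 raised. Other cell type markers moved too in 2M_6M, where 4 of 7 interneuron and 3 of 5 microglia markers were raised and 3 of 4 ependymal and 2 of 4 cortical neuron markers were lowered. The part of these shifts was not tested. The count in 2M_6M rests in part on 1 library: without zQ175 DBD replicate 3, 17 members were raised. Against Estop in place of DBD, 10, 7, 1, 1 and 1 members were raised. With the mouse as a block, 4 were raised in 6M_12M. With the level of long relative to short genes (the length index) as a covariate, 18, 8 and 6 were raised in 2M_8M, 6M_10M and 6M_12M. This index differed between the compared zQ175 groups of 2M_8M, with a median of 0.42 (-0.41 to 0.69) under DBD and -0.18 (-0.61 to 0.67) under nZFP. With the covariate, the increases in 2M_8M were 0.46 for Kcnip2, 0.48 for Kcnk2 and 0.34 for Kcnab1, all called. In 6M_8M, without the libraries that contradicted their labels, 0 members were raised and 1, Kcnn3, was lowered. For these alternative fits the shares of all genes are not given here, so their counts cannot be set against all genes.

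Under nZFP, the numbers of members that differed between genotypes were smaller than under DBD in the 2M cohorts. Those lower in zQ175 numbered 3, 6, 10, 17 and 11, against 0.664%, 2.62%, 9.18%, 9.28% and 8.75% of all genes, and those higher 1, 3, 3, 4 and 5, against 0.874%, 4.05%, 7.89%, 10.3% and 7.93%. Adjusted for the length index, 5, 15 and 22 members were lower in 2M_6M, 2M_8M and 6M_12M. This comparison shares no library with the genotype comparison under DBD, but 37 mice gave a library to each. Kcnab1, Kcnh3 and Kcnk13 were lower in all 5 cohorts, and Kcnip2, Kcnk1 and Kcnk2 in the last 4. Some members were called under nZFP but not under DBD in the same cohort. In 6M_10M these included the leak channel Kcnk10 (-0.52), the ATP-sensitive Kcnj11 (-0.41) and the calcium-activated Kcnn2 (-0.21), and in 6M_12M the modifier Kcng4 (-0.74). The axonal Kcna3 was higher in 2M_8M (0.79). Whether these differences themselves differed between viruses is the interaction term given next, which was called for none of them. In 6M_8M the counts were 11 lower and 6 higher without the libraries that contradicted their labels. Shares of all genes in that fit and in the fit with the length index are not given here.

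The interaction term asked whether nZFP acted differently in the 2 genotypes. In 2M_6M and 2M_8M, 4 and 3 members were called, against 3.27% and 1.99% of all genes. In 2M_6M the response to nZFP was larger in zQ175 for Kcnh3 (0.42 ± 0.07 SE, adjusted p = 7.51e-05), Kcnip2 (0.37 ± 0.10, adjusted p = 0.0345) and Kcnab1 (0.36 ± 0.09, adjusted p = 0.0145), and lower for Kcnj3 (-0.46 ± 0.09, adjusted p = 0.00159), all by edgeR. In 2M_8M it was larger for Kcnip2 (0.44 ± 0.10), Kcnab1 (0.32 ± 0.07) and Kcnh5 (0.68 ± 0.19, adjusted p = 0.0481). No member was called in the other 3 cohorts, where 0%, 0.0505% and 0% of all genes were called by edgeR. There, 0, 10 and 4 members had an unadjusted p under 0.05. The share of all genes with such a p is not given here, so no excess is read from these numbers. Summed over the 5 cohorts, DESeq2 made 12 calls, the fit with the mouse as a block 15 and that with the length index 24, against 7 by edgeR, which fell on 5 members. How many of all genes these other fits called is not given here.

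Injection at 2 months and at 6 months, each followed by 6 months of treatment, was compared directly for the repressor effect in zQ175. No member was called, against 0.0834% of all genes. An unadjusted p under 0.05 was found for 11 members. The share of all genes with such a p is not given here, so no excess is read from that number. The smallest adjusted p among the members was that of Kcng1, with an effect of early minus late injection of -0.83 ± 0.24 (SE) (adjusted p = 0.0996, edgeR). Age at injection, age at collection and cohort cannot be told apart in this difference.

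In WT mice, which have no expanded repeat, nZFP against DBD changed few members. The numbers called were 2, 8, 1, 0 and 1, against 0.268%, 2.98%, 0.581%, 0.48% and 0.238% of all genes. Summed over the 5 cohorts, DESeq2 made 21 calls and the fit with the mouse as a block 20, against 12 by edgeR. Of the 8 in 2M_8M, all lower, 7 were called in no other cohort: Kcna2 (-0.97), Kcna3 (-0.94), Kcnk9 (-0.89), Kcnma1 (-0.86), Kcnd1 (-0.51), Kcnh1 (-0.49) and Kcnf1 (-0.44). In that cohort the level of long genes relative to short genes was lower in WT nZFP (median index -0.41, range -0.53 to 0.06) than in WT DBD libraries (0.23, -0.45 to 0.69). With this index as a covariate, 3 members were lower and 4 higher. Its part in these 7 differences was not tested further. How many of all genes were called by these alternative fits in WT is not given here. The remaining calls were Kcnh3, raised in 6M_8M (0.32), Kcnj3, raised in 2M_6M, and Kcnn3.

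Kcnn3 (chr3:89520164-89675132, plus strand), a small-conductance calcium-activated channel that shapes the pause after a spike, was lower under nZFP in both genotypes. In WT libraries of 2M_6M its level was 15.1 to 22.3 CPM under nZFP (median 19.9), 26.9 to 47.9 under DBD (median 38.0) and 21.4 to 47.4 under Estop (median 42.8). In WT libraries of 6M_12M it was 11.8 to 20.7 under nZFP (median 15.2), 21.7 to 45.8 under DBD (median 31.6) and 17.3 to 45.6 under Estop (median 32.7). In zQ175 libraries of 6M_12M it was 11.0 to 18.6 under nZFP (median 14.7), 18.6 to 37.4 under DBD (median 30.8) and 22.2 to 37.8 under Estop (median 28.7). In these 3 sets the repressor libraries lay at the bottom, the DBD and Estop libraries covered much the same range, and nZFP and DBD did not overlap beyond touching at 18.6 CPM. In WT mice the highest repressor libraries overlapped the lowest Estop libraries. The WT DBD libraries of 2M_6M include replicate 6, which contradicted its label. The effect of nZFP on Kcnn3 was -0.999, -1.30, -0.78, -0.94 and -1.10 in WT (SEs 0.17 to 0.24) and -0.60, -0.80, -0.68, -1.23 and -1.03 in zQ175 (SEs 0.17 to 0.26). By edgeR it was called in 2M_6M, 2M_8M and 6M_12M in WT, with adjusted p-values of 0.000343, 1.26e-05 and 0.000154, and in these and 6M_10M in zQ175.

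The comparisons in which Kcnn3 missed the threshold held libraries that contradicted their labels or stood apart. Such libraries were also held by some comparisons of each genotype in which Kcnn3 was called, among them 6M_10M in zQ175. In 6M_8M, without the libraries that contradicted their labels, nZFP lowered Kcnn3, at -0.97 in WT (adjusted p = 0.00472, edgeR) and -0.90 in zQ175 (adjusted p = 0.0126, edgeR). In 6M_10M, without the libraries that stood apart, it was lowered in WT, at -1.08. Against Estop the effect was -1.05, -1.16, -0.95, -1.11 and -1.03 in WT and -0.91, -0.67, -0.67, -1.09 and -0.99 in zQ175. With the length index as a covariate it was -1.02, -0.97, -0.53, -1.03 and -1.09 in WT and -0.74, -0.65, -0.74, -1.10 and -1.14 in zQ175. The interaction with genotype was not called for Kcnn3 in any cohort (0.40, 0.50, 0.10, -0.29 and 0.07, SEs 0.24 to 0.35). Under nZFP Kcnn3 did not pass as different between genotypes, with values from -0.37 to 0.21.

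**Figure D5:**
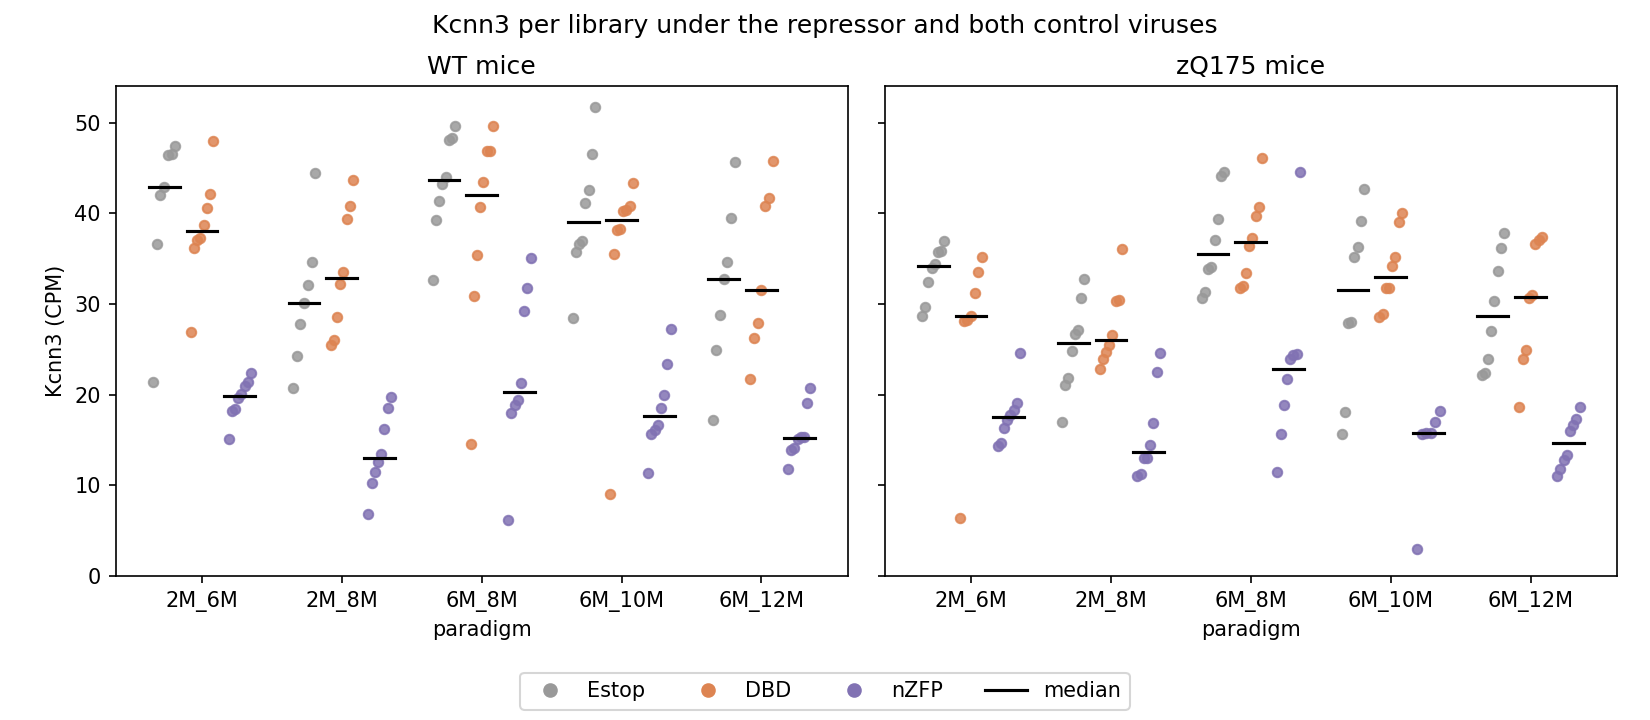
Kcnn3 level (CPM) per library in WT (left) and zQ175 (right) mice under Estop, DBD and nZFP, by cohort, with the median as a black line. Medians under nZFP lie between 13.0 and 22.8 CPM, below those under DBD and Estop in every cohort and both genotypes, while single DBD libraries that stood apart lie as low as 6.45 CPM.

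Since nZFP is directed at CAG repeats, the coding sequences of all members were searched for uninterrupted CAG runs on the coding strand, a search added after the Kcnn3 values had been seen. The 2 members with the longest run are printed from the spliced coding sequence of GENCODE M21 (GRCm38), 60 bases to either side, with CAG runs of 2 or more units in capitals.
Kcnn3: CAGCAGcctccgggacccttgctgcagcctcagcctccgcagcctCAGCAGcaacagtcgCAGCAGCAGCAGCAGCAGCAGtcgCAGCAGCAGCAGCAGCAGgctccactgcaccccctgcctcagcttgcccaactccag
Kcnh3: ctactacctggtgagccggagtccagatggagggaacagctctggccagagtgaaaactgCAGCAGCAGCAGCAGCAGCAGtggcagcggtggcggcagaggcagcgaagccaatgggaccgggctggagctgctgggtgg
Both runs have 7 units. That of Kcnn3 lies at chr3:89520667-89520687 on the plus strand, in exon 1 of 8 and 503 bases from the transcript start, and is followed after 1 other codon by a run of 6 units. It reads as CAG codons, which encode glutamine, and its window holds 23 CAG triplets in all. That of Kcnh3 lies at chr15:99232790-99232810 on the plus strand, in exon 8 of 15 and 7929 bases from the transcript start. It is read in another frame, as AGC codons, and its window holds 13 CAG triplets. Kcnh3 was lowered by nZFP in neither genotype in any cohort.

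Runs this long were found in 85 of 13532 protein-coding genes (0.628%), and the next longest run in a member described here, in Kcna4, had 4 units. All 85 genes were tested, Kcnn3 and Kcnh3 among them. The length of 7 units was taken from these members, and Kcnn3 is counted as lower below wherever it was called. The shares are therefore not independent of the gene that prompted the search. In WT mice 3, 4, 0, 2 and 2 of them (3.53%, 4.71%, 0%, 2.35% and 2.35%) were lower under nZFP, against 0.236%, 2.04%, 0.0625%, 0.297% and 0.206% of all genes. In zQ175 mice 9, 4, 0, 3 and 3 (10.6%, 4.71%, 0%, 3.53% and 3.53%) were lower, against 14.4%, 2.9%, 0.0688%, 0.41% and 0.573% of all genes, so in 2M_6M the share was below that of all genes. Kcnn3 had the lowest or next to lowest log2 fold change of the 85 in each cohort and genotype. Kcnh3 ranked between place 50 and place 85 from the lowest, the last place being that of the largest increase. A run of this length was thus shared by genes with and without a lower level, and introns and regions outside the coding sequence were not searched.

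DBD against Estop, a comparison of the control viruses, called 7, 0, 0, 2 and 1 members in zQ175 and 1, 0, 0, 3 and 0 in WT. The shares of all genes were 4.5%, 0.184%, 0.0563%, 0.234% and 0.29% in zQ175 and 0.108%, 0.196%, 0.188%, 0.669% and 0.167% in WT. Kcns1, a modifier subunit, was higher under DBD in zQ175 in 2M_6M (0.38), 6M_10M (0.49) and 6M_12M (0.29) and in WT in 2M_6M (0.44). The cytosolic subunit Kcnab3 was lower in zQ175 in 2M_6M (-0.56) and 6M_10M (-0.66) and in WT in 6M_10M (-0.58). Kcnh2 was lower in zQ175 in 2M_6M (-0.42) and in WT in 6M_10M (-0.37), and Kcnab2 in the same 2 groups (-0.32 and -0.24). Kcnq3 and Kcnh3 were lower in zQ175 in 2M_6M (-0.34 and -0.19), the cohort in which zQ175 DBD replicate 3 stood apart.

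Genes that work with these channels were taken from a list of 48 auxiliary, anchoring and regulatory genes, of which 47 were tested. Under DBD, 15, 9, 6, 10 and 7 of them were lower and 4, 6, 5, 9 and 7 higher in zQ175, so both directions were about as common in the 6M cohorts. Among all genes tested, 11.5%, 9.37%, 5.15%, 12.3% and 9.14% were lower and 17.2%, 9.32%, 3.98%, 11.9% and 9.14% higher. The 5 named here, those with the largest mean change among the genes called most often, were called in all 5 cohorts. Rgs4, which ends G protein signals to inward rectifiers, was lower, at -1.05, -1.12, -0.85, -1.20 and -1.248, and Rgs9, of the same family and enriched in striatum, at -0.75, -0.76, -0.61, -0.83 and -0.88. Rgs9 is also among the medium spiny neuron markers counted above. Dpp10, a membrane partner of Kcnd channels, was higher by 0.82, 0.92, 0.64, 0.89 and 0.68. Lrrc55, an auxiliary subunit of Kcnma1 channels, was higher by 0.57, 0.82, 0.61, 0.74 and 0.69, and Gng3, a G protein subunit, by 0.73, 0.69, 0.61, 0.61 and 0.73. Of the Kcnd partners, Kcnip2 and Kcnip3 were lower and Dpp10 higher in each cohort, while Dpp6, the membrane partner related to Dpp10, and Kcnip4 were called in none.

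Upstream sequences, 250 bases before each RefSeq start (GRCm38.p6), were found for 51 of 73 members, in 73 windows. None held CAGCAGCAG, the cAMP response element TGACGTCA or the Egr motif GCGTGGGCG on either strand, against 1.28%, 1.55% and 0.536% of 32851 windows. The E-box CAGCTG, a palindrome, was in 19 of the 73 windows (26%) and in 13% of all windows. Of the members with full values, Kcnk2, Kcnip3, Kcne1l and Kcnj3 held it. A member that was lower in zQ175 and the inward rectifier that was higher are shown with the motif in capitals.
Kcnip3: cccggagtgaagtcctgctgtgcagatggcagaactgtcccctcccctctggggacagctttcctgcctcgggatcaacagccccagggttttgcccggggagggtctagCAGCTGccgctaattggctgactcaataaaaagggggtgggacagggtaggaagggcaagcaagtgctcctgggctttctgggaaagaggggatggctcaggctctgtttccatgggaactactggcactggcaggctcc
Kcnj3: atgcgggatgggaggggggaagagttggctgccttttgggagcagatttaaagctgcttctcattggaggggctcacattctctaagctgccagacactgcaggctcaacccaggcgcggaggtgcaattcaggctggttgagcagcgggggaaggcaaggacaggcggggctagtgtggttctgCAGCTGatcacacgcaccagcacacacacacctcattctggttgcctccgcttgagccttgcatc
The Kcnip3 window is chr2:127522095-127522344 on the minus strand with the motif starting 140 bases before the start, and the Kcnj3 window is chr2:55435720-55435969 on the plus strand with the motif 65 bases before the start. Members that were lower and the member that was higher thus held the same letters, and no binding was measured.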

How the data were processed

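Libraries were prepared with poly(A) selection (NEB Next Ultra, per the labels' protocols). The authors deposited RSEM expected counts per gene on GRCm38, per the submitters' processing notes; the sources used here give no version, annotation release or strand setting. A table deposited as FPKM sums to 1000000 in every library and was therefore read as TPM, as the authors deposited it, for levels between genes. Of the 41135 entries of the count table, 6 vector entries (at most 0.669% of a library) stayed out of library sizes and tests. Expected counts were rounded. Libraries held 27993215 to 61296071 gene counts, so counting error is small for all but the lowest members.

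Each cohort was fitted with edgeR 4.0.16 (R 4.3.3; filterByExpr by group, TMM, robust quasi-likelihood, sex as covariate, 6 groups), with Benjamini-Hochberg adjustment over all 15673, 15786, 16000, 15840 and 15523 genes. Calls are at 0.05. SEs are the log2 fold change divided by the root of F. CPM levels of members by library use TMM. The CPM minimum, the summed marker levels and the vector levels use plain library totals. The fits were tested on simulated data. Alternatives used DESeq2 1.42.0, limma 3.58.1 (voom with the mouse as a random block), RLE factors, no count filter, a replicate block, a length index, Estop as control and subsets of libraries. A library contradicted its label when the repressor sequence was under 50 CPM in nZFP or over 50 CPM otherwise, or the WPRE sequence was under 100 CPM in DBD. It stood apart when its length index (median log2 deviation of the 10% of genes with the longest exonic length minus that of the 10% with the shortest) lay over 5 scaled median absolute deviations from its cohort's median.

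Genes with full values are those called in the same direction in at least 4 of 5 cohorts under DBD, or in at least 3 for the repressor effect or the difference under nZFP, at most 16 by geometric mean p. The members, lists and rules were chosen with earlier results of these data known. Annotation is GENCODE M21. Of 73 members, 22 share exonic bases with another gene, 5 of them over at least 10% of their length. Values of 4 members are not reported here; they enter the counts.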

Additional observations from a re-analysis of the deposited data

Results flagged for a closer look

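Of 96 groups of libraries examined for the 16 members with full values in 2M_8M and 6M_12M, 4 held a library far from the others by Dixon's criterion, which chance alone exceeds in about 1 in 20 groups. These were Kcnj3 in WT DBD replicate 7 of 2M_8M (12.5 CPM, group median 9.93), Kcnh3 in WT DBD replicate 6 of 6M_12M (242 CPM, median 187), Kcnk1 in zQ175 nZFP replicate 8 of 6M_12M (93.7 CPM, median 104) and Kcnq5 in zQ175 nZFP replicate 1 of 6M_12M (90.2 CPM, median 112). Each was a different library.

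The response to nZFP differed between genotypes by the interaction test of edgeR for 7 results. In 2M_6M the differences of zQ175 from WT were -0.46 for Kcnj3, 0.36 for Kcnab1, 0.42 for Kcnh3 and 0.37 for Kcnip2. In 2M_8M they were 0.32 for Kcnab1, 0.68 for Kcnh5 and 0.44 for Kcnip2.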

How the results depend on the processing

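Of 161 counts of members recomputed under another setting, 137 stayed within 1.5 times the reported count and 24 did not. With the length index as a covariate, 25 and 24 members were lower in zQ175 under DBD in 2M_8M and 6M_12M, the repressor raised 18, 8 and 6 members in 2M_8M, 6M_10M and 6M_12M, 5, 15 and 22 were lower under nZFP in 2M_6M, 2M_8M and 6M_12M, and 24 interactions were called over the 5 cohorts. With Estop in place of DBD, 14 members were lower in 2M_6M, and the repressor raised 10 in 2M_6M and 1 in each 6M cohort. DESeq2 raised the count of members up under nZFP in 6M_10M to 4, of calls in WT to 21 and of interactions to 12. With the mouse as a block, these counts were 4 in 6M_12M, 20 and 15. Without the libraries that stood apart, 4 members were raised in 6M_10M and 11 interactions were called. Without a count filter, 1 member was raised in 6M_12M. The cause of these shifts was not tested. Apart from the genotype difference with Estop, shares of all genes are not given here for these settings or for the replicate block. Whether members shifted more than other genes cannot be read from the counts.

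Replicate numbers did not meet the rule for pairing (every correlation over 0.1): deviations of same-numbered libraries correlated at 0.03, 0.02, -0.01, 0.06 and 0.26, and 34.8%, 23.4%, 25%, 19.6% and 30.4% of libraries correlated best with their own number. In 6M_12M they were nevertheless related to the length index, which lay at -0.93 to -0.27 in the replicates numbered 1 and 0.26 to 0.50 in those numbered 5. There the replicate block gave 24 members raised by nZFP in place of 2, and 16 higher and 16 lower in zQ175 under nZFP in place of 5 and 11. The calls higher under nZFP summed to 29 in place of 16. Libraries of 1 mouse correlated at 0.14, 0.31, 0.12, 0.12 and 0.36.

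For single members, 1828 results were counted as unchanged, 57 passed the threshold only under an alternative, 26 lost it, and 8 moved. Unchanged means the same side of the threshold, so a value called under neither setting was counted so whatever its sign. Ratios in TPM were counted as unchanged when they differed from those in CPM by less than the spread of libraries. The 1 value counted as reversed was in Kcna4. Its log2 ratio of group medians, zQ175 DBD to WT DBD, in 6M_12M was 0.185 in TPM and negative in CPM.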

Other observations

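Of the Kcn genes under the CPM minimum that still passed the count filter in some cohort, none was called in the genotype comparison under DBD or for the repressor effect in zQ175. Under nZFP, Kcnrg was higher in zQ175 in 2M_8M (1.49 ± 0.46 SE, adjusted p = 0.0399, edgeR) and Kcnq1 lower in 6M_10M (-1.08 ± 0.33 SE, adjusted p = 0.0155, edgeR).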
